A study of Homo sapiens with 20 samples.

Results

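RNA-seq libraries labelled as NFS1 knockdown were compared, gene by gene, with libraries of wild-type cells named R-47. The comparison took the 5 columns NFS1-1 to NFS1-5 and the 5 columns R-47-1 to R-47-5 of the count table by their names, which is 10 of the 20 libraries of the series. The 5 libraries of another group, NC, served as context, and the 5 libraries held at 37 °C were not used. All 15 libraries are labelled MHCC-97H, a metastatic line of human hepatocellular carcinoma, and all 15 were heated to 47 °C for 15 minutes and kept in an incubator for 24 hours. R-47 and NC carry the genotype label wild type, and NFS1 the label NFS1 knockdown, which the series' design text says was made with shRNA. R-47 belongs to the first experiment of the series, on heat, and NC and NFS1 to the second, on knockdown. Genotype label and experiment are therefore the same split in this comparison. They cannot be told apart, and no difference given here can be ascribed to the knockdown. The labels name no shRNA sequence, no clone or pool and no separate cultures, so p-values measure only the spread between these libraries, which may be technical.

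NFS1 is the cysteine desulfurase of mitochondria, which takes sulfur from cysteine for the assembly of iron-sulfur clusters. Cells short of these clusters read it as a lack of iron and take up more of it, which can favour ferroptosis, a form of cell death driven by iron and the oxidation of membrane lipids. Hepatocellular carcinoma lines keep parts of the hepatocyte programme and differ from each other in how far they have shifted from epithelial to mesenchymal traits.

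Total counts ranged from 35431078 to 39094039 in R-47 and from 35426499 to 36253443 in NFS1, and 18852 to 19185 genes had at least 1 count in R-47 against 19742 to 20480 in NFS1. Levels are given as CPM, counts scaled to a common library total, adjusted by TMM, a factor that evens out differences in RNA makeup. That factor was 0.90 to 0.91 in R-47 and 1.05 to 1.08 in NFS1, so the balance of higher and lower genes depends on it. Distances were taken across 15635 genes as the root mean square log2 difference between a pair of libraries, averaged over the libraries of a group. From each NFS1 library they were 1.28 to 1.32 to R-47 and 0.518 to 0.630 to NC. Among NFS1 libraries they were 0.396 to 0.510. Library NFS1-4 stood apart: its value was 0.510 within its group, where the other 4 reached 0.419 at most, and 0.630 against NC, where the other 4 reached 0.535. The first principal component of the 2000 most variable genes held 87.0% of their variance and set R-47 (-92.1 to -85.7) against NC (45.8 to 49.7) and NFS1 (40.5 to 44.5). The second held 3.91% and set NC (14.6 to 18.2) against NFS1 (-17.5 to -16.1).

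**Figure D1:**
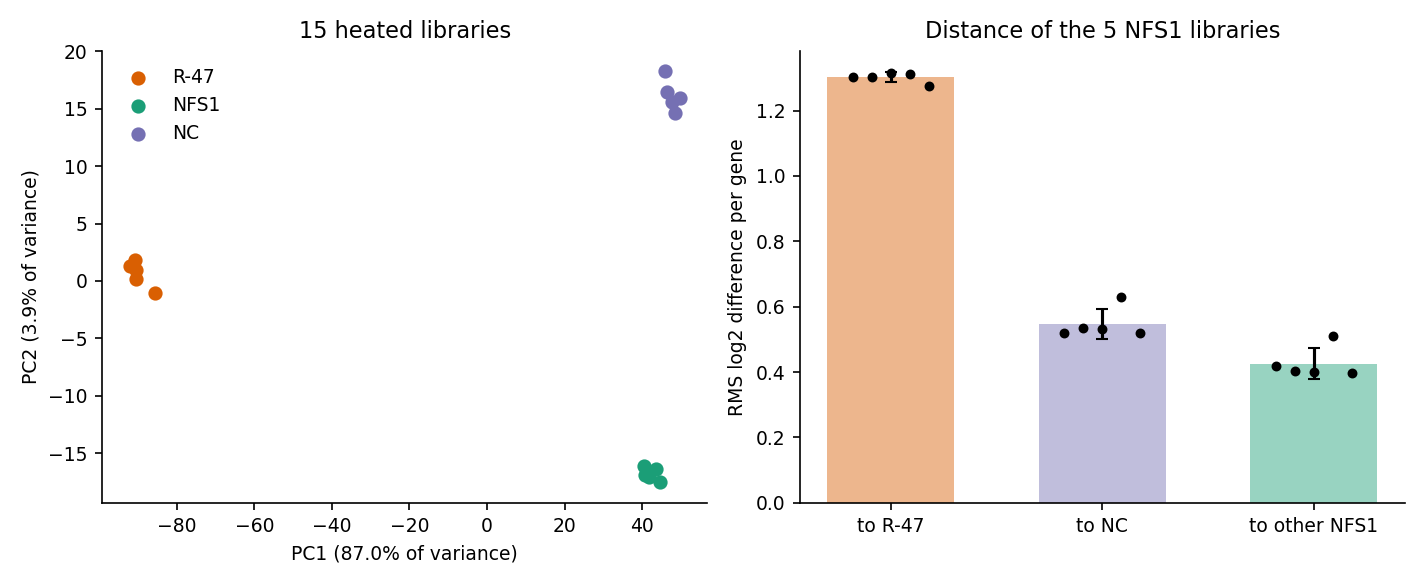
Left, the 15 heated libraries on the first 2 principal components of log2 CPM, colored by group. Right, the root mean square log2 difference per gene of each NFS1 library (points), averaged over the libraries of R-47, of NC and of the other NFS1, with the mean (bar) and SD (line) over 5 libraries. NFS1 lies beside NC on the first component, and all 5 NFS1 libraries are at 1.28 or more from R-47 and at 0.630 or less from NC.

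The gene named in the label came first. NFS1 (GRCh38 chromosome 20, 35668052 to 35699352) had 88.6, 91.3, 98.4, 99.8 and 101 CPM in R-47-1 to R-47-5, and 73.1, 67.7, 66.8, 66.4 and 70.8 CPM in NFS1-1 to NFS1-5. The groups did not overlap, and every NFS1 library was lower. The log2 fold change was -0.45 (SE 0.06, adjusted p = 3.7e-06 by edgeR's quasi-likelihood test), and the exact two-sided permutation test gave p = 0.0079, the smallest that 252 splits allow. Scaled by library size alone the log2 fold change was -0.25. NC had 74.3, 75.6, 73.9, 74.3 and 78.6 CPM, so the wild-type libraries of the second experiment lay nearer to NFS1 than to R-47. Between NFS1 and NC the log2 fold change was -0.11 (SE 0.05) and was not called by edgeR (adjusted p = 0.11), while DESeq2 called it (-0.125, adjusted p = 0.043). Here too every NFS1 library was below every NC library, and the exact two-sided permutation test again gave p = 0.0079. The libraries labelled NFS1 therefore carried transcript of the targeted gene at 69.0 ± 2.9 CPM, against 95.8 ± 5.5 in R-47 and 75.4 ± 1.9 in NC (SD, n = 5 each).

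Of the 4 genes that mark these groups, 3 were lower and 1 was higher in NFS1 than in R-47. BACE2, a membrane protease related to the beta-secretase (chromosome 21, 41168160 to 41282530), had 41.1, 38.7, 39.0, 35.7 and 36.9 CPM in R-47 and 28.0, 26.5, 25.8, 30.9 and 29 CPM in NFS1, and 4.60 to 8.15 CPM in NC. NFS1 lay below R-47 without overlap, at a log2 difference of -0.43 (SE 0.07, adjusted p = 4.2e-05), and above NC by 2.20 (SE 0.12, adjusted p = 5.9e-08). EPHB2, a receptor tyrosine kinase for ephrins (chromosome 1, 22710838 to 22921500), had 25.1 to 30.9 CPM in R-47, 9.25, 7.13, 6.91, 7.69 and 8.56 CPM in NFS1 and 0.826 to 1.76 CPM in NC. Each NFS1 library lay between the other groups, with log2 fold changes of -1.77 (SE 0.09) against R-47 and 2.69 (SE 0.18) against NC. CYP24A1, the enzyme that breaks down active vitamin D (chromosome 20, 54143538 to 54173986), had 136 to 153 CPM in R-47, 21.5 to 28.1 CPM in NFS1 and 4.55 to 6.04 CPM in NC. Here too the 3 groups did not overlap, and NFS1 was 2.53 lower than R-47 on the log2 scale (SE 0.07, adjusted p = 1.1e-13) and 2.21 higher than NC.

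VIM, which encodes the mesenchymal filament protein vimentin (chromosome 10, 17228241 to 17237593), went the other way. It had 10.9, 10.7, 11.7, 9.28 and 11 CPM in R-47 and 184, 149, 163, 176 and 179 CPM in NFS1. All NFS1 libraries were above all R-47 libraries, by 4.01 on the log2 scale (SE 0.08, adjusted p = 3.4e-15). NC, at 213 to 238 CPM, was higher again, and NFS1 lay 0.38 below it on the log2 scale (SE 0.06, adjusted p = 0.0004). By these 4 genes NFS1 was close to NC for VIM, nearest to R-47 for BACE2, and between the groups for EPHB2 and CYP24A1.

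**Figure D2:**
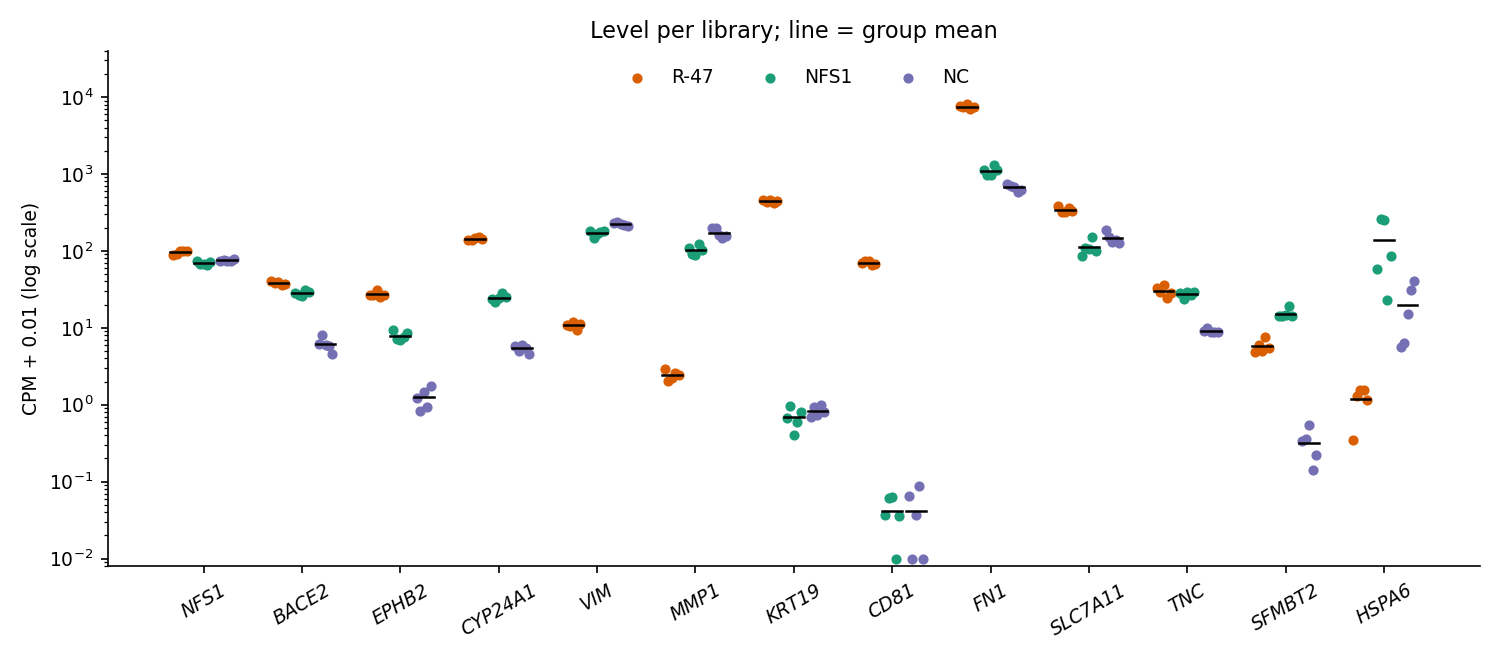
Level of 13 genes in each of 15 libraries, as CPM plus 0.01 on a log axis, by group, with the group mean as a line. VIM and MMP1 are high in NFS1 and NC and low in R-47, KRT19, CD81 and FN1 the reverse; BACE2, EPHB2 and CYP24A1 fall between in NFS1, and SFMBT2 is highest in NFS1.

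Most genes differed between NFS1 and R-47. Of 15098 genes tested, 11008 were called at an adjusted p under 0.05 (72.9%), 5629 higher (37.3%) and 5379 lower (35.6%) in NFS1. More than 2-fold differences were found for 3745 of these genes (24.8%), with 2019 higher (13.4%) and 1726 lower (11.4%), and more than 16-fold differences for 392 (2.60%). The median log2 fold change over all tested genes was 0.03. In 8855 genes the 5 NFS1 libraries did not overlap the 5 R-47 libraries. Scaled by library size alone, 7454 genes were higher and 3953 lower, and the median shifted up by 0.21, so the split into higher and lower rests on the scaling while the number called, 11407, did not move much. Without NFS1-4, 11871 genes were called, 5978 higher and 5893 lower. With NFS1 set against NC, 4245 of 15086 genes were called (28.1%) and 441 differed more than 2-fold (2.92%).

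Epithelial genes were mostly lower in NFS1, and mesenchymal genes moved both ways. Of 17 tested genes of epithelial junctions and keratins, 11 were lower and 3 higher, with a median log2 fold change of -0.75, against 0.03 over all genes and 72.9% called in either direction. For this and every later list, the shares over all tested genes are 37.3% higher and 35.6% lower. KRT19, a keratin of bile duct and progenitor cells (chromosome 17, 41523617 to 41528308), had 414 to 456 CPM in R-47 and 0.659, 0.955, 0.394, 0.581 and 0.787 CPM in NFS1. No NFS1 library reached 1 CPM, the log2 fold change was -9.32 (SE 0.12, adjusted p = 1.7e-17), and NC was as low, at 0.683 to 0.993 CPM. KRT7, its partner keratin in duct epithelium, averaged 52.2 ± 2.6 CPM in R-47 and 3.9 ± 0.83 CPM in NFS1 (log2 fold change -3.72, SE 0.12). CDH1, the adhesion molecule E-cadherin, averaged 19.3 ± 0.8 CPM against 3.14 ± 0.64 CPM (log2 fold change -2.59, SE 0.12). CLDN7, a claudin of tight junctions, rose from 6.50 to 8.78 CPM across R-47 libraries to 23.4 to 28.9 CPM across NFS1 libraries (log2 fold change 1.73, SE 0.10).

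Of 18 tested mesenchymal genes, 6 were higher and 8 lower, and by library size alone 9 were higher and 6 lower. The lower ones included FN1, the matrix glycoprotein fibronectin (chromosome 2, 215360865 to 215436068, minus strand). It had 7564, 7453, 8135, 6971 and 7375 CPM in R-47 and 1130, 960, 969, 1313 and 1141 CPM in NFS1. Every NFS1 library was far below every R-47 library, with a difference of -2.74 on the log2 scale (SE 0.08, adjusted p = 1.5e-13), and above NC, which averaged 669 ± 66 CPM. VIM and FN1, often raised together in mesenchymal states, thus differed in opposite directions.

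Genes for contact with the matrix were mostly lower. Of 17 tested integrins, 12 were lower and 2 higher (median log2 fold change -0.95). ITGA3, the alpha chain of a laminin receptor, had 370 to 430 CPM in R-47 and 54.5 to 73.7 CPM in NFS1 (log2 fold change -2.64, SE 0.08). ITGB4, the beta chain of the hemidesmosome integrin, had 306 to 375 CPM and 51.4 to 68.3 CPM (log2 fold change -2.49, SE 0.09). Of 28 collagens, laminins and matrix glycoproteins, 18 were lower and 6 higher (16 and 9 by library size alone). COL17A1, a hemidesmosome collagen, fell from 52.2 ± 3.1 to 6.79 ± 0.68 CPM, and COL18A1, a basement membrane collagen, from 157 ± 15 to 22.1 ± 5.4 CPM. COL4A5, also of basement membranes and on the X chromosome, had 0.0568 to 0.399 CPM in R-47 and 13.2 to 16.2 CPM in NFS1 (log2 fold change 6.53, SE 0.25), and the adjacent COL4A6, named after its value was seen, was higher by 7.69 on that scale.

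Of 18 matrix proteases and plasminogen activation genes, 11 were lower and 4 higher (median -0.76). MMP7, which cleaves matrix and cell surface proteins, had 220, 213, 196, 197 and 211 CPM in R-47 and 16.4, 15.3, 14.5, 15.1 and 16.4 CPM in NFS1 (log2 fold change -3.71, SE 0.06). MMP1, the interstitial collagenase, had 2.02 to 2.88 CPM in R-47 and 108, 90.8, 89.0, 122 and 103 CPM in NFS1 (log2 fold change 5.42, SE 0.12, adjusted p = 6.7e-15). For neither of these 2 genes did the groups overlap, and they differed in opposite directions. MMP24, a membrane-bound metalloprotease, averaged 92.6 ± 6.1 CPM in R-47 and 5.92 ± 1.12 CPM in NFS1. Of 14 secretase subunits and substrates, 12 were lower and 2 higher (12 and 1 without NFS1-4). The lower ones included the gamma-secretase subunits APH1A (log2 fold change -1.23, SE 0.06) and PSEN2 (-1.49, SE 0.11). Of 12 Eph receptors and ephrins, 6 were lower and 4 higher, and the ephrin EFNB1 averaged 142 ± 9 CPM in R-47 and 43.8 ± 5.5 CPM in NFS1. Of 8 vitamin D genes, 3 were lower and 3 higher, and VDR, the receptor of the hormone, was higher by 0.75 (SE 0.07) where CYP24A1 was lower.

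Tetraspanins, membrane scaffold proteins, and members of the TM4SF family were together lower in 16 of 24 and higher in 4 (median -0.59). CD81, one of the most widely expressed tetraspanins (chromosome 11, 2376180 to 2397397), had 69.9, 73.7, 74.4, 66.0 and 67.3 CPM in R-47 and 0 to 0.0525 CPM in NFS1. Over the group these are 12011 counts against 6, and NC also had 6. The nearest tested neighbours of CD81 differed by -0.03 (MRPL23) and 0.67 (TSSC4) on the log2 scale, and the next ones on each side were lower, CTSD at -1.38 and CDKN1C at -4.92. TSPAN8, a tetraspanin linked to invasion, went from 12.6 to 16.8 CPM in R-47 to 60.4 to 76.7 CPM in NFS1 (log2 fold change 2.24, SE 0.09).

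CD81 was 1 of 18 genes that averaged at least 5 CPM in R-47 and stayed at or below 0.1 CPM in every NFS1 library, of 10603 genes at that level in R-47. Of the 18, 17 are protein coding, 7 had no count in any NFS1 library, and 16 were also at or below 0.1 CPM in every NC library. FLYWCH2, a small protein of unknown role (chromosome 16, 2883195 to 2899382), had 9.52, 9.04, 10.7, 9.25 and 11.2 CPM in R-47 and no count in NFS1 or NC, which is at least 632-fold lower in NFS1 when 3 counts over the group are taken as the floor. On the same floor, computed over the group, the mitochondrial carrier SLC25A36 was at least 580-fold lower, the Golgi protein gene FJX1 at least 524-fold, the chromatin reader L3MBTL4 at least 447-fold, RTL5 at least 390-fold and the lactate receptor HCAR1 at least 374-fold. UPK1B, a uroplakin of the urothelium, had 5236 counts in R-47 and 3 in NFS1, the ganglioside synthase B4GALNT1 had 2870 and 2, and the adhesion receptor ADGRF1 had 2804 and 3. Others in this set were VCAM1, CDH6, ADAM12 and TMPRSS2, with 12.2, 20.7, 13.6 and 5.77 CPM in R-47. The nearest tested gene on each side of FLYWCH2 and SLC25A36 was above 0.1 CPM on average in NFS1, and ZG16B, beside FLYWCH2, was lower by 3.62 on the log2 scale (9.25 against 0.738 CPM). Neighbours of other genes in this set differed more. Beside RTL5, NHSL2 differed by -7.28 (4.68 against 0.0259 CPM) and PIN4 by -0.62. Beside ADGRF1, ADGRF5 differed by -6.05 (6.94 against 0.0997 CPM) and TNFRSF21 by -1.19. Beside L3MBTL4, neither ZBTB14 (-0.01) nor ARHGAP28 (0.14) was called.

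The reverse set held 7 genes, of 10625 at 5 CPM or more in NFS1, all of which averaged more than 1 CPM in NC. RET, a receptor tyrosine kinase, had 1 count in R-47 and 998 in NFS1, where it stood at 4.70 to 5.57 CPM. The protocadherin PCDH18 had 1 and 1249 counts, the thyroid hormone activator DIO2 had 1 and 1156, and the carrier SLC16A9 had 1 and 1035. SLC16A7, a monocarboxylate carrier for lactate and pyruvate, had 3 and 1914 counts, and SVEP1, a matrix adhesion protein, had 10 and 1495. Near these stood VWA3A (11 and 3114 counts) and MLLT3, a reader of acylated histones (17 and 2202 counts).

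Promoters of 2 genes that were far lower in NFS1 are shown with their CG pairs in capitals, to show the sequence at the start of genes that lost most of their counts. CG is the base pair step at which human DNA is methylated, and methylation was not measured. They are the 250 bases before the RefSeq start (GRCh38.p14), FN1 at chr2:215436069-215436318 on the minus strand and FLYWCH2, from the first of its listed starts, at chr16:2882945-2883194 on the plus strand, 5′ to 3′.
FN1: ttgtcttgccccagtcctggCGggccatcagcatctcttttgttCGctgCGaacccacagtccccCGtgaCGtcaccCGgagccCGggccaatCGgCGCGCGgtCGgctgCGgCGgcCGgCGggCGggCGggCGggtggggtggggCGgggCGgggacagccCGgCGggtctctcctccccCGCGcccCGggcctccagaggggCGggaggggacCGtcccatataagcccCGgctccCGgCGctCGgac
FLYWCH2: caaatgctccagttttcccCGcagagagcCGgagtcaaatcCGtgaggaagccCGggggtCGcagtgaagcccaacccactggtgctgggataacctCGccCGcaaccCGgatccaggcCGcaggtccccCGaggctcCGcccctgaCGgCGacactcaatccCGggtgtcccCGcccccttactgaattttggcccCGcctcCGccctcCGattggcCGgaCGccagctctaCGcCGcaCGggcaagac
The FN1 window held 32 CG pairs and the FLYWCH2 window 23, against a median of 20 over the 11791 tested genes with a listed promoter. Of those promoters 84.9% held fewer pairs than FN1 and 58.1% fewer than FLYWCH2. Of the 18 genes present in R-47 and at or near 0 in NFS1, 11 had a listed promoter, with a median of 22 pairs (2 to 31). Of the 7 in the reverse set 6 had one, with a median of 5 (1 to 33), so the ranges overlapped.

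Hepatocyte identity genes were mostly lower, with 12 of 21 tested lower and 7 higher (median -0.78). As a check of the labelled cell type, APOA1 was under 1 CPM in every library of both groups, TTR was also under 1 CPM in both, and ALB, serum albumin, averaged 5.32 ± 0.79 CPM in R-47 and 0.656 ± 0.181 CPM in NFS1. The hepatocyte transcription factor HNF4A was present in both, at 54.3 to 62.2 CPM in R-47 and 64.2 to 76.4 CPM in NFS1 (log2 fold change 0.30, SE 0.07, adjusted p = 0.0007). NR1H4, the bile acid receptor, was lower by 5.84 (SE 0.23), from 10.2 to 12.5 CPM to 0.0528 to 0.336 CPM. SERPINA1, a secreted protease inhibitor of liver, averaged 2.46 ± 0.40 and 0.598 ± 0.351 CPM. APOB averaged 3.56 ± 0.23 and 4.84 ± 1.36 CPM, and its call was lost without NFS1-4 (adjusted p = 0.056).

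Of 16 oncofetal and progenitor genes, 10 were lower and 3 higher (median -1.08). PEG10, an imprinted gene raised in many liver cancers, had 10.6 to 14.6 CPM in R-47 and 164 to 199 CPM in NFS1 (log2 fold change 3.77, SE 0.09), and the peptidase ANPEP, an apical membrane enzyme, fell from 128 ± 9 to 30.5 ± 3.6 CPM. Of 10 tested cancer-testis antigens, 7 were lower and 2 higher. SSX1 had 8842 counts in R-47 and 11 in NFS1, and MAGEC2 had 1449 and 14, while MAGEA3 averaged 68.2 ± 1.7 and 116 ± 10 CPM. These X-linked families hold near-identical copies, so reads may be divided between them and their values are uncertain.

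Markers of other cell types were read in the same libraries. Of 15 leukocyte markers 9 were under 1 CPM in both groups, among them PTPRC, CD3E and LYZ, and the list's summed level was 163 to 210 CPM in R-47 and 137 to 159 CPM in NFS1. Of 10 endothelial markers 6 were under 1 CPM in both, including CDH5 and VWF (sums of 126 to 136 and 93.1 to 98.4 CPM). Of 11 fibroblast and stellate cell markers 6 were under 1 CPM in both, including PDGFRA, PDGFRB and COL3A1, and the sum was 20.3 to 24.5 CPM in R-47 and 38.5 to 61.5 CPM in NFS1. Of the 6 tested ones 4 were higher and 1 lower. The higher ones included LUM, with 17.2 to 20.5 CPM in R-47 and 29.6 to 53.6 CPM in NFS1. Cholangiocyte markers differed most in sum, at 936 to 1020 CPM in R-47 and 269 to 332 CPM in NFS1, with 7 of 9 tested lower and 2 higher. EPCAM of that list was under 1 CPM in both, and 2 of its members are KRT19 and KRT7. The part of other cells in the differences was not tested.

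Iron-sulfur cluster assembly genes, the pathway of NFS1 itself, were split. Of 28 tested, 8 were higher, 9 lower and 11 not called, with a median of -0.07, and by library size alone 12 were higher and 7 lower. CIAO3, which hands clusters to nuclear and cytosolic proteins, had 34.2 to 39.3 CPM in R-47 and 6.10 to 10.9 CPM in NFS1 (log2 fold change -1.94, SE 0.12). NUBP2, part of the cytosolic scaffold, had 59.9 to 67.0 CPM and 21.9, 21.8, 20.7, 11.1 and 21.9 CPM (log2 fold change -1.69, SE 0.14). ISCA1, a mitochondrial factor for the larger clusters, averaged 33.8 ± 3.3 CPM in R-47 and 59.8 ± 4.1 CPM in NFS1 (log2 fold change 0.85, SE 0.08). NC stood beside NFS1 for these genes, at 6.45 ± 1.17, 17.5 ± 3.5 and 57.7 ± 2.1 CPM.

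Genes that protect from ferroptosis were mostly lower, with 16 of 24 lower and 5 higher (median -0.46; 15 and 8 by library size alone), whereas 11 of 25 driver genes were higher and 10 lower. SLC7A11, the cystine importer that feeds glutathione synthesis, had 379, 321, 316, 360 and 333 CPM in R-47 and 86.7, 109, 107, 153 and 101 CPM in NFS1. The groups were far apart, by 1.60 on the log2 scale (SE 0.12, adjusted p = 4.2e-09). GPX4, the enzyme that reduces lipid peroxides, had 380 to 418 CPM in R-47 and 317 to 421 CPM in NFS1 and was not called (log2 fold change -0.04, SE 0.07), and by library size alone its sign turned (0.17, adjusted p = 0.03). AIFM2, a second defence enzyme also called FSP1, had 69.1 to 74.3 CPM and 80.9 to 110 CPM (log2 fold change 0.47, SE 0.08). GCH1, which starts the synthesis of the antioxidant tetrahydrobiopterin, rose from 2.60 ± 0.25 to 6.74 ± 0.54 CPM. Among the drivers, ACSL4, which loads membranes with oxidizable fatty acids, fell from 79.0 to 93.1 CPM to 38.3 to 57.2 CPM (log2 fold change -0.91, SE 0.09), and the lipoxygenase ALOX5 fell from 16.1 ± 1.5 to 4.06 ± 0.62 CPM. The lipoxygenase ALOXE3 rose from 0.991 ± 0.413 to 9.5 ± 3.46 CPM and PTGS2, a marker gene of ferroptosis, from 7.44 ± 0.72 to 16.2 ± 2.6 CPM. NC averaged nearer to NFS1 than to R-47 for SLC7A11 (146 ± 23 CPM), AIFM2 (116 ± 6), GCH1 (8.52 ± 0.60) and ACSL4 (51.2 ± 6.2). The same held for ALOX5 (4.68 ± 0.74), ALOXE3 (8.11 ± 1.79) and PTGS2 (14.4 ± 2.0).

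Iron handling genes were also mostly lower, with 14 of 21 genes lower and 4 higher (median -0.54; 12 and 6 by library size alone). SLC40A1, the iron exporter ferroportin, had 118, 106, 108, 117 and 120 CPM in R-47 and 21.6, 23, 23.6, 29.5 and 23 CPM in NFS1 (log2 fold change -2.22, SE 0.08). FTH1, the heavy chain of the iron store ferritin, averaged 4542 ± 141 CPM against 2549 ± 243 CPM (log2 fold change -0.81, SE 0.06), and has many processed copies in the genome. LCN2, a carrier of iron-binding siderophores, fell from 19.3 ± 2.0 to 1.11 ± 0.54 CPM. The zinc and iron importer SLC39A8 rose from 2.87 to 5.87 CPM to 20.2 to 24.6 CPM (log2 fold change 2.32, SE 0.14). TFRC, the transferrin receptor, had 622 to 728 CPM in R-47 and 666 to 847 CPM in NFS1 with overlap, and its log2 fold change of 0.13 (SE 0.07) was not called, although by library size alone it was (0.34). NC stood beside NFS1 for SLC40A1 (24.6 ± 1.6 CPM), LCN2 (0.914 ± 0.283 CPM) and SLC39A8 (24.6 ± 3.0 CPM). For FTH1 NC lay between, at 3601 ± 65 CPM, and the log2 fold change of NFS1 against NC was -0.48 (SE 0.06).

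The stress chaperones were split, and 2 of them varied widely among the NFS1 libraries. Of 25 heat shock chaperones, 10 were higher and 5 lower (15 and 4 by library size alone, 13 and 5 without NFS1-4). The share called was 60.0%, against 72.9% of all tested genes, of which 37.3% were higher and 35.6% lower. HSPA6, an HSP70 gene of strong stress (chromosome 1, 161524540 to 161526894), had 0.342, 1.29, 1.53, 1.55 and 1.15 CPM in R-47 and 58.5, 261, 256, 23.1 and 86.1 CPM in NFS1. All NFS1 libraries were higher, but they spanned 23.1 to 261 CPM among themselves, and the log2 fold change was 6.88 (SE 0.67, adjusted p = 1.4e-07). HSPA1A, the inducible HSP70, had 70.6 to 98.3 CPM in R-47 and 215, 905, 873, 103 and 308 CPM in NFS1 (log2 fold change 2.58, SE 0.44). The same 2 libraries, NFS1-2 and NFS1-3, were the highest for both genes. NC spanned 5.63 to 40.4 CPM for HSPA6 and 44.1 to 252 CPM for HSPA1A. HSPA8, the constitutive HSP70, was lower by 1.40 (SE 0.10), from 1285 to 1805 CPM to 465 to 655 CPM. HSPA1A, HSPA1B and HSPA6 are near-identical in stretches, so reads may be divided between them.

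The HSPA6 promoter is shown because that gene was the heat shock gene with the largest difference in the list. It is the 250 bases before the RefSeq start, chr1:161524290-161524539 on the plus strand of GRCh38.p14, 5′ to 3′, with capitals for GAA, any 2 bases and TTC, the core of a heat shock element.
HSPA6: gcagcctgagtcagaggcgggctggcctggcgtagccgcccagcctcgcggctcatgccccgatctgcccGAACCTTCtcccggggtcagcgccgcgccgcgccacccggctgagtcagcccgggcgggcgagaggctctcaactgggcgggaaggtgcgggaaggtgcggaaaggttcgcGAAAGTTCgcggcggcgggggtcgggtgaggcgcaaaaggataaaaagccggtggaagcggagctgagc
The motif reads the same on both strands, so each match was counted once, and the window held 2 matches, which do not overlap. It was present in 4.25% of the promoters of tested genes and in 10 of the 23 chaperone genes with a listed promoter (43.5%). Those 10 included genes that were higher (HSPA6, HSPA1A and HSPA1B), lower (HSPA8 and DNAJB6) and not called (HSPA1L, HSPB1, HSPB8, DNAJA1 and CHORDC1).

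Genes of the endoplasmic reticulum, ATF4 and NRF2 responses were mostly lower. Of 23 genes of the endoplasmic reticulum response, 18 were lower and 1 higher (median -0.44; 14 and 4 by library size alone). The chaperone HSP90B1 had 806 to 922 CPM in R-47 and 382 to 534 CPM in NFS1, and the disulfide isomerase PDIA4 285 ± 12 and 103 ± 4 CPM (log2 fold change -1.45, SE 0.05). Of 25 genes of the ATF4 amino acid response, 16 were lower and 4 higher (median -0.52). SLC7A5, an importer of large neutral amino acids, averaged 691 ± 31 and 205 ± 19 CPM, and the stress regulator NUPR1 88.2 ± 9.4 and 16.5 ± 4.3 CPM, while PHGDH, the first enzyme of serine synthesis, rose from 15.2 to 18.3 CPM to 41.7 to 62.6 CPM (log2 fold change 1.79, SE 0.10). Of 25 NRF2 targets of the antioxidant response, 15 were lower and 5 higher (median -0.40; 13 and 8 by library size alone). Of 22 NF-kB targets and chemokines, 11 were lower and 5 higher (7 and 7 by library size alone).

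Hypoxia genes were mostly higher. Of 21 tested, 14 were higher and 2 lower (median 0.69), and by library size alone 18 and 1. CA9, a carbonic anhydrase that HIF induces, had 0.293 to 0.909 CPM in R-47 and 11.7, 13.7, 5.91, 8.74 and 11.7 CPM in NFS1 (log2 fold change 4.03, SE 0.26). LOX, which crosslinks collagen, went from 0.199 to 0.485 CPM to 5.33 to 9.91 CPM (log2 fold change 4.56, SE 0.24), and the vasodilator peptide gene ADM was lower by 0.78 (SE 0.07). NC stood nearer to NFS1 than to R-47 for all 3, at 9.14 ± 4.06 CPM for CA9, 6.69 ± 0.71 for LOX and 37.8 ± 4.5 for ADM. Of 24 glycolysis and lactate genes, 13 were higher and 7 lower (16 and 4 by library size alone). The regulator PFKFB4 rose from 5.39 ± 0.39 to 21.1 ± 3.0 CPM and the aldolase ALDOC from 8.95 ± 0.62 to 24.9 ± 1.9 CPM, and the phosphofructokinase PFKP fell from 332 ± 16 to 145 ± 11 CPM. LDHA, which makes lactate, had 1032 to 1132 CPM in R-47 and 814 to 988 CPM in NFS1 (log2 fold change -0.23, SE 0.06, adjusted p = 0.0023), a call that was lost by library size alone (adjusted p = 0.72).

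Lactylation, the addition of lactate-derived groups to histones, is a theme of the series. Of 19 writers, erasers and suppliers of the list, 9 were lower and 5 higher (5 and 9 by library size alone), so its balance turned with the scaling. HAGH, a glyoxalase, averaged 49.5 ± 2.1 and 13.4 ± 2.0 CPM, the acetyl-CoA synthetase ACSS2 29.9 ± 2.4 and 12.3 ± 1.3 CPM, and the acetyltransferase KAT2B rose from 9.82 ± 1.03 to 15.5 ± 3.2 CPM. Of 24 cholesterol synthesis genes, 17 were lower and 3 higher (12 and 5 by library size alone). EBP, a sterol isomerase on the X chromosome, had 119 to 125 CPM and 32 to 43 CPM, the mevalonate kinase gene MVK 29 to 32.5 and 7.77 to 14.4 CPM, and the sterol reductase TM7SF2 rose from 7.42 ± 1.01 to 34.8 ± 3.6 CPM. Of 19 fatty acid synthesis genes, 12 were lower and 5 higher (8 and 6 by library size alone).

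Growth genes did not move as a block. Of 34 DNA replication genes, 15 were higher and 5 lower (27 and 2 by library size alone), with MCM4, a subunit of the replicative helicase, at 454 to 483 CPM in R-47 and 1167 to 1309 CPM in NFS1 (log2 fold change 1.38, SE 0.05). Of 34 mitosis genes, 22 were lower and 1 higher (16 and 3 by library size alone). PLK1, a mitotic kinase, had 287 to 320 and 102 to 118 CPM, and CENPE, a kinetochore motor, 56.9 ± 7.5 and 25.9 ± 9.0 CPM. Of 59 cytosolic ribosomal protein genes, 30 were higher and 9 lower (39 and 4 by library size alone). RPL15 and RPL29, both on chromosome 3, rose by 1.06 (SE 0.05) and 0.98 (SE 0.10), and RPL38 fell by 1.2 (SE 0.11). These genes have many processed copies. Of 37 complex I genes 15 were higher and 9 lower (24 and 4 by library size alone), and of 26 TCA cycle genes 8 were higher and 12 lower (12 and 6 by library size alone). Over all tested genes 37.3% were higher and 35.6% lower.

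Interferon-stimulated genes were higher in 13 of 27 and lower in 8 (14 and 4 by library size alone), where 37.3% of all tested genes were higher and 35.6% lower. IFI27, an interferon-induced mitochondrial protein, had 2.97 to 4.26 CPM in R-47 and 50.4, 35.4, 44.0, 27.3 and 46.4 CPM in NFS1 (log2 fold change 3.46, SE 0.16), and the factor IRF7 averaged 11.2 ± 1.2 and 33.4 ± 4.4 CPM. IFITM2, an antiviral membrane protein, fell from 12.9 ± 1.1 to 1.93 ± 0.53 CPM. Antigen presentation genes of MHC class I were lower in 9 of 15 and higher in 2 (6 and 6 by library size alone, 9 and 4 without NFS1-4). HLA-C averaged 50.5 ± 1.7 and 22 ± 3.2 CPM and its activator NLRC5 8.37 ± 0.16 and 3.75 ± 1.04 CPM, while the light chain B2M was higher by 0.43 (SE 0.05).

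**Figure D3:**
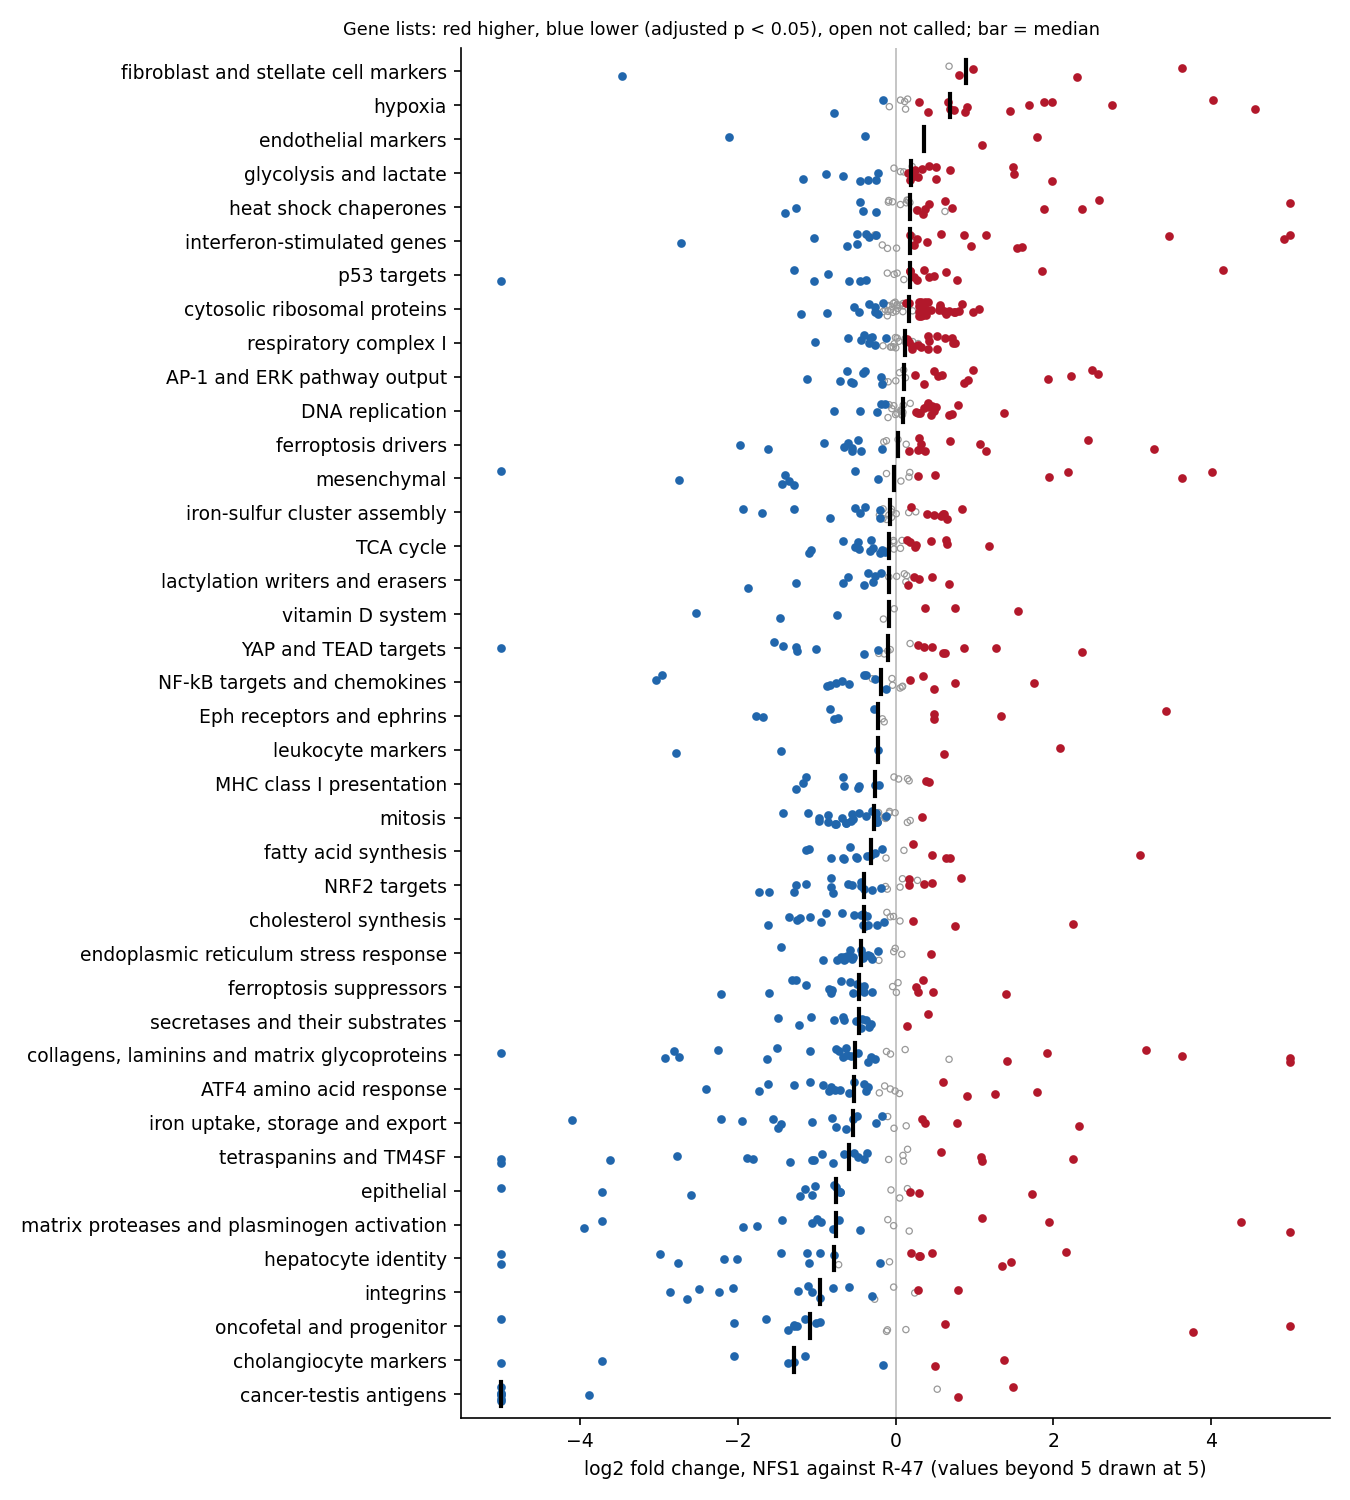
Log2 fold change of NFS1 against R-47 for each tested member of 40 gene lists, ordered by list median (bar), with called members filled (red higher, blue lower) and others open; values beyond 5 are drawn at 5. Hypoxia genes lie mostly to the right (median 0.69), and integrins, oncofetal genes and epithelial genes mostly to the left (medians -0.95, -1.08 and -0.75).

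The remaining lists were closer to an even split. Of 23 p53 targets, 11 were higher and 7 lower (15 and 6 by library size alone). Of 27 genes of AP-1 and ERK output, 12 were higher and 9 lower (15 and 7 by library size alone), and of 21 YAP and TEAD targets 8 were higher and 8 lower. The lists overlap in members, and 72.9% of all tested genes were called, 37.3% higher and 35.6% lower, so a list with most of its members called does not stand out by that.

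To place NFS1 between the other 2 groups, 4363 genes whose NC and R-47 means differed by more than 1 on the log2 scale were used, and each gene was given a position, 0 at the R-47 mean and 1 at the NC mean. Since the axis is set by R-47 and NC, this describes where NFS1 lies and tests nothing. The median positions of NFS1-1 to NFS1-5 were 0.910, 0.910, 0.916, 0.872 and 0.889, with a mean of 0.899 ± 0.018 (SD, n = 5). All 5 libraries lay close to NC. By the group mean, 2850 genes (65.3%) were near NC (within 0.25 of it) and 1081 (24.8%) were between (0.25 to 0.75). Another 337 (7.72%) were beyond NC, and 95 (2.18%) were below 0.25. That last class holds genes near R-47 and also genes beyond R-47 on the side away from NC, such as NKD1 at -1.51 and SFMBT2 at -0.34. From the quantile at 5% to that at 95%, positions spanned 0.43 to 1.35. Genes on chromosome 10 had a median of 0.763, with 14 of 213 below 0.25, and genes on X one of 0.991. With genes more than 2 apart on the log2 scale, the mean position was 0.922.

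**Figure D4:**
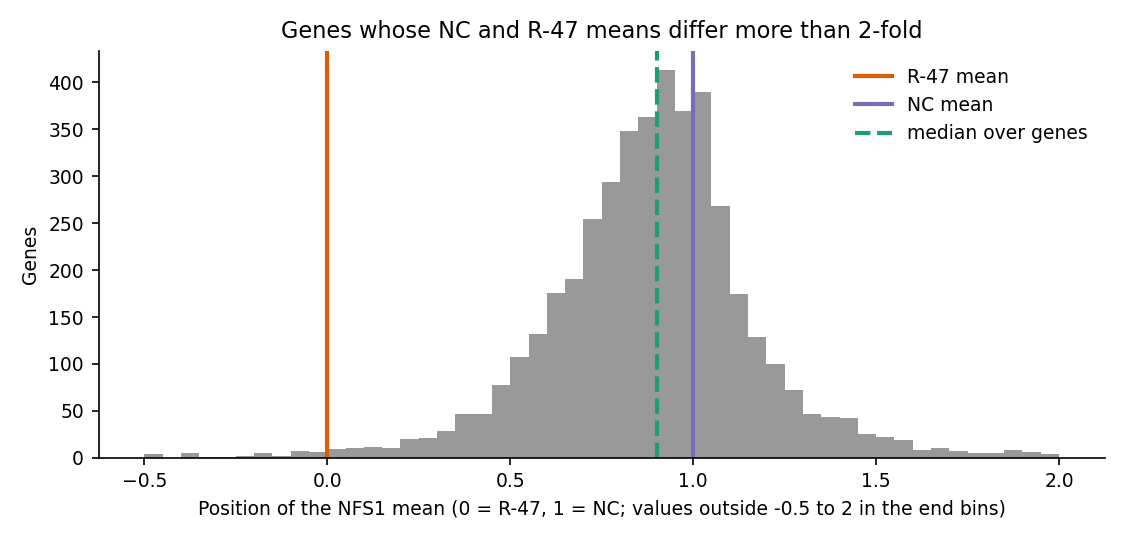
Number of genes by the position of the NFS1 mean between the R-47 mean (0) and the NC mean (1), for the 4363 genes whose NC and R-47 means differ more than 2-fold; lines mark both means and the median over genes. Most genes lie near 1, and 95 genes lie below 0.25, some of them below 0 and so beyond R-47.

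In 30 genes NFS1 kept the R-47 level while NC did not. They were drawn from the 4363 genes above. Only named protein-coding genes off the Y chromosome were kept, tested against R-47 and with a group mean of at least 5 CPM. How many genes passed these filters was not counted. In the 30, NFS1 and R-47 overlapped and their means were within 0.5 on the log2 scale. The 5 with the largest difference between NC and R-47 were all lower in NC. TNC, the matrix glycoprotein tenascin-C, had 33.2, 28.8, 35.8, 24.3 and 28.7 CPM in R-47, 28.4, 23.8, 28.8, 26.8 and 29.3 CPM in NFS1 and 8.71 to 9.96 CPM in NC. SYT1, a calcium sensor of vesicle release, averaged 14.4 ± 1.1, 13 ± 3.1 and 3.57 ± 0.76 CPM in R-47, NFS1 and NC. DOCK4, an exchange factor for small GTPases, averaged 33.5 ± 1.9, 29.2 ± 4.8 and 10.7 ± 1.2 CPM, TCP11L2 9.96 ± 0.70, 9.38 ± 1.29 and 2.91 ± 0.28 CPM, and UBA7, the activating enzyme of ISG15, 7.61 ± 1.53, 6.57 ± 0.59 and 2.25 ± 0.26 CPM. None of the 5 was called between NFS1 and R-47 by edgeR. That does not show equality: without NFS1-4, SYT1 fell by 0.29 (adjusted p = 0.0027) and DOCK4 fell by 0.28 (adjusted p = 0.00025), and without R-47-1 UBA7 fell by 0.29 (adjusted p = 0.024).

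Other genes set NFS1 apart from both groups. Of the 15098 genes tested against R-47, 458 had every NFS1 library above the 10 libraries of R-47 and NC, with a call in both comparisons. In 537 every NFS1 library was below them by the same rule. Of these, 77 and 27 differed more than 2-fold from both. The rule was not run for R-47 or NC, so whether these counts are large for a group was not tested. SFMBT2, a polycomb protein (chromosome 10, 7158624 to 7411490), had 4.88 to 7.49 CPM in R-47, 14.4, 14, 14.6, 18.9 and 14.1 CPM in NFS1 and 0.131 to 0.530 CPM in NC. NFS1 was above R-47 by 1.43 (SE 0.13) and above NC by 5.63 (SE 0.21). NKD1, an inhibitor and target of Wnt signalling, averaged 2.93 ± 0.43, 9.61 ± 0.33 and 1.31 ± 0.15 CPM in R-47, NFS1 and NC. COL6A3, a microfibril collagen, had 24.2 to 29.4, 87.3 to 110 and 28.2 to 36.7 CPM. INHBA, the activin A subunit, averaged 0.522 ± 0.102, 7.09 ± 0.66 and 1.87 ± 0.55 CPM, and FAM167A 2.32 ± 0.16, 19.1 ± 1.8 and 6.97 ± 0.75 CPM. The 5 lowest by the same rule were ANXA3, an annexin, and ARMCX4, RENBP, STK26 and ZNF185, all 4 on the X chromosome. ANXA3 averaged 7.84 ± 0.40, 0.320 ± 0.117 and 1.16 ± 0.28 CPM, and STK26, a kinase of the germinal centre family, 8.70 ± 1.03, 1.06 ± 0.36 and 2.82 ± 0.27 CPM. RENBP averaged 17.6 ± 1.5, 0.829 ± 0.282 and 2.24 ± 0.51 CPM. Of the 77 genes above both, 14 lie on chromosome 10, which holds 585 of the tested genes.

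Genes of the X chromosome were more often lower than those of all chromosomes, and genes of chromosomes 3 and 14 more often higher. Medians differed along X and along chromosomes 3 and 10. Of 489 tested genes on X, 330 were lower (67.5%, against 35.6% of all genes) and 77 higher, with a median log2 fold change of -0.78. The first 25 Mb of X had a median of 0.26 and the next 25 Mb one of -1.24. On chromosome 3, 527 of 865 genes were higher (60.9%, against 37.3% of all genes), with medians of 0.61 to 0.83 in the first 75 Mb and 0.10 to 0.25 in the rest. On chromosome 14, 305 of 494 were higher (61.7%). Each of the 5 NFS1 libraries showed these medians, at -0.87 to -0.75 for X, 0.39 to 0.47 for chromosome 3 and 0.31 to 0.42 for chromosome 14. The NC libraries lay on the same side, at -0.55 to -0.46, 0.33 to 0.42 and 0.51 to 0.57. Chromosome 10 was different: its median was 0.09 in NFS1 against R-47, and its NC libraries lay at -0.50 to -0.37. That median covers uneven stretches: from 50 to 75 Mb it was 0.60, with 79 of 109 genes higher and 15 lower. Other stretches of 25 Mb lay between -0.27 and 0.11. Copy number was not measured, and GC content and gene length were weakly related to the log2 fold change across genes (Spearman's rho of -0.07 over 13401 genes and -0.09 over 15098 genes, which are not independent replicates).

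**Figure D5:**
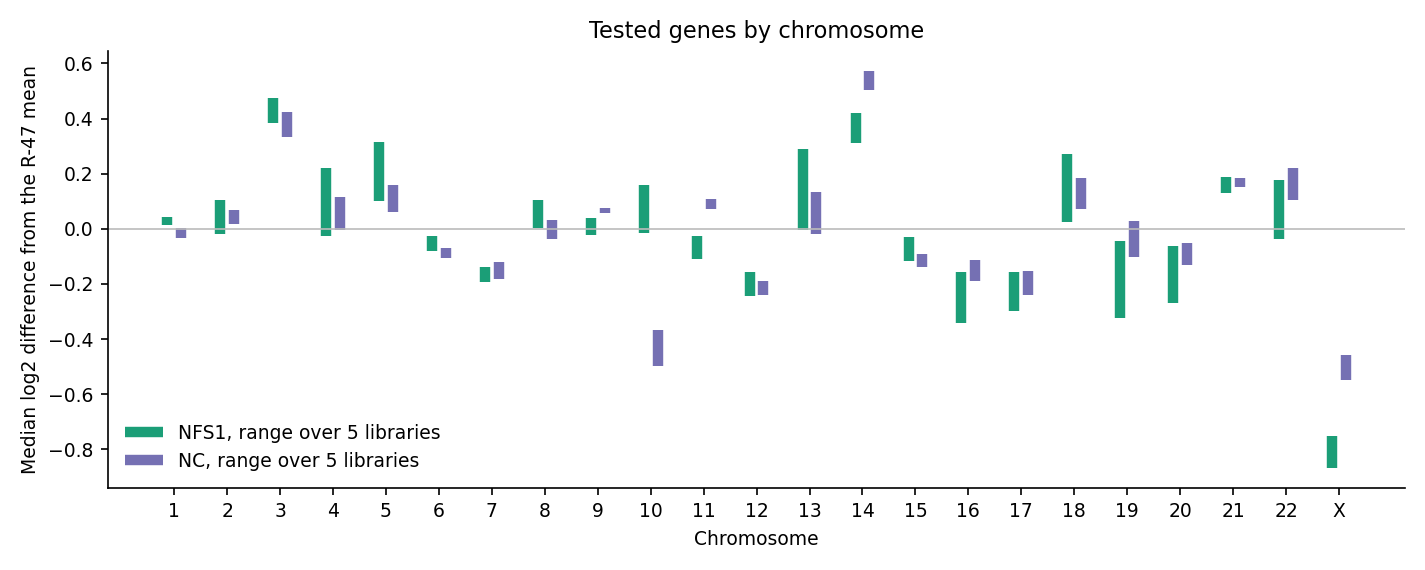
Median log2 difference from the R-47 mean over the tested genes of each chromosome, as the range over the 5 NFS1 libraries and over the 5 NC libraries. X lies lowest and chromosomes 3 and 14 highest in both, and on chromosome 10 the NC libraries lie at -0.50 to -0.37 while the NFS1 libraries lie near 0.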

How the data were processed

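Titles gave the group and replicate of each sample, and table columns were matched to samples by title. The authors deposited counts per gene symbol, whole numbers with no normalization, and FPKM for the same genes, which equal count over gene length and library total. The tools named per the submitters' processing notes are HTSeq, HISAT2 and fastp, with build hg38. Their versions, the annotation and strandedness were not given in the sources used here, so overlapping and antisense genes cannot be told apart. Per the labels' protocols, RNA was extracted with TRIzol and libraries made with a VAHTS Universal kit.

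From the counts, genes were filtered with edgeR's filterByExpr (minimum count 10, total 15), scaled by TMM and tested with edgeR's quasi-likelihood test (edgeR 4.0.16, R 4.3.3) on the 2 groups compared, with Benjamini-Hochberg adjustment over all tested genes and a threshold of 0.05. SE is the log2 fold change over the root of the F statistic. CPM, positions and principal components used TMM over 15 libraries and a prior count of 2 for log2 values. Positions on chromosomes came from RefSeq (98.0% of tested symbols). On simulated counts for NFS1 against R-47 (15098 genes), the share of changed genes called was 40% for changes of 1.25-fold, 82% for 1.5-fold, 94% for 2-fold and 100% for 4-fold, with 6 of 14752 unchanged genes called. In the simulation only a small set of genes above a count minimum was changed, as many up as down. It therefore does not test the scaling where most genes differ, as they did here. Alternatives were DESeq2 size factors, a minimum count of 50, no filter, scaling by library size alone, DESeq2 1.42.0, limma-voom (limma 3.58.1), limma on log2(FPKM + 1) or log2(FPKM + 0.1), all 15 libraries in one fit, the replicate block and each library left out.

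The members and the 40 gene lists were chosen with earlier results of these data known. Named genes were NFS1, the 4 markers and genes of ferroptosis, lactate and adhesion. To these came 10 of the highest and 10 of the lowest fold changes without overlap of the groups (mean of at least 5 CPM in the higher group), up to 3 members of each list, the 5 highest above and 5 lowest below both other groups, and, of genes kept at the R-47 level, the 5 with the largest difference between NC and R-47. Some genes so named are not reported here, and VCAM1, CDH6, ADAM12, TMPRSS2, COL4A6, ZG16B, other neighbouring genes, HNF4A, APOB, APOA1 and SERPINA1 are named beside the rule. No 2 libraries held identical counts. Counting error only is covered by floors of 3 counts.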

Additional observations from a re-analysis of the deposited data

Results flagged for a closer look

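Of 207 groups of 5 values checked for a single value far from the others (the gap to the nearest, divided by the whole range, above Dixon's critical value), 34 had one. For independent groups chance alone gives about 1 in 20. These groups share the same libraries, so the 34 are not separate results and cannot be set against that rate. In 29 of the 34 the value was that of NFS1-4. Its distance was 0.510 from its own group (0.396 to 0.419 in the other 4) and 0.630 from NC (0.518 to 0.535). Higher in that library were TFRC at 847 CPM in NFS1-4 with 666 to 704 in the others, PCDH18 at 8.77 with 5.61 to 6.25 and SLC16A7 at 14.6 with 8.01 to 9.86. In the same direction stood VWA3A at 19.2 CPM in NFS1-4 with 15.3 to 15.9 in the others, SFMBT2 at 18.9 with 14 to 14.6 and SYT1 at 18.3 with 10.6 to 12.3. Also higher were DOCK4 at 37.6 CPM in NFS1-4 with 25.8 to 28.3 in the others, SLC40A1 at 29.5 with 21.6 to 23.6 and SLC39A8 at 24.6 with 20.2 to 21.5. To these came CENPE at 41.4 CPM in NFS1-4 with 17.9 to 24.2 in the others, MCM4 at 1309 with 1167 to 1193 and PEG10 at 199 with 164 to 173. The rest of the higher ones were KAT2B at 21.2 CPM in NFS1-4 with 13.6 to 15.1 in the others, B2M at 654 with 584 to 600 and APOB at 7.24 with 4.01 to 4.51.

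Lower in that library were MMP24 at 3.94 CPM in NFS1-4 with 6.09 to 6.58 in the others, COL18A1 at 12.5 with 23.7 to 25.6 and NUBP2 at 11.1 with 20.7 to 21.9. In that direction stood NUPR1 at 8.80 CPM in NFS1-4 with 17.8 to 18.8 in the others, SLC7A5 at 172 with 208 to 222 and PHGDH at 41.7 with 58.9 to 62.6. Also lower were RPL29 at 465 CPM in NFS1-4 with 689 to 747 in the others, RPL38 at 94.8 with 154 to 164 and IRF7 at 25.8 with 34.3 to 36.5. Further low ones were MAGEA3 at 97.7 CPM in NFS1-4 with 119 to 122 in the others and ACSS2 at 9.93 with 12.6 to 13.2. The rest of the lower ones were HLA-C at 16.4 CPM in NFS1-4 with 23 to 24.4 in the others.

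Single values in other libraries were LCN2 at 2.05 CPM in NFS1-5 (0.736 to 1.06 in the others), SLC7A5 at 745.0 CPM (670 to 683) and ANPEP at 143 CPM (121 to 128) in R-47-3, PFKFB4 at 4.72 CPM in R-47-5 (5.45 to 5.67) and PSEN2 at 13.6 CPM in R-47-2 (10.7 to 11.3). Without NFS1-4, SYT1 and DOCK4 gained a call against R-47 and APOB lost one, and TFRC, SLC7A11 and ACSL4 gained one against NC.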

How the results depend on the processing

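Direction and call held for most of the 116 named genes that were repeated. Over all their repeats of NFS1 against R-47, 2266 kept both, 20 changed sign, 4 lost the call and 9 gained it. Counts with a difference of more than 2-fold depended on the filter and the unit. For NFS1 against R-47 they were 3745 in the main analysis, 5724 with no filter, 2476 with a minimum count of 50 and 1139 on log2(FPKM + 1). On log2(FPKM + 1) 3135 genes were lower, and on log2(FPKM + 0.1) 8481 were higher. For NFS1 against NC, 441 became 218 with a minimum count of 50, 24 on log2(FPKM + 1) and 235 on log2(FPKM + 0.1). The mean position was 0.922 for genes more than 2 apart.

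With each library left out, NFS1 against R-47 gave 10667 to 11871 calls, 5418 to 5978 higher, 5110 to 5893 lower and 3778 to 3948 more than 2-fold. NFS1 against NC gave 3376 to 5137, 1796 to 2775, 1500 to 2362 and 435 to 501, and the position was 0.892 to 0.907. The highest number of calls in each comparison came without NFS1-4.

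Sign changes came with the scaling. By library size alone, on log2(FPKM + 1) and on log2(FPKM + 0.1), in that order, the log2 fold changes were 0.169, 0.163 and 0.163 for GPX4, 0.0909, 0.0731 and 0.0959 for TNC, 0.0738, 0.0401 and 0.0491 for SYT1, 0.144, 0.0883 and 0.127 for TCP11L2, 0.0313, 0.0168 and 0.0195 for DOCK4, and 0.0171, 0.0205 and 0.0357 for UBA7. These settings leave out the TMM factor, which shifts all genes up by 0.19 to 0.21. GPX4 was also at 0.0129 with a minimum count of 50, and from -0.0804 to 0.0211 with a library left out. AIFM2 against NC lost its call when any of several single libraries was left out, and with other settings too. Otherwise the cause was not tested.

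Replicate numbers are shared by the groups but did not mark pairs: deviations of same-numbered libraries correlated at -0.07 to 0.08 with R-47 and at -0.21 to 0.06 with NC. With the replicate block 10990 genes were called for NFS1 against R-47, 5572 higher and 5418 lower, and 3068 for NFS1 against NC. Depth was similar in all 15 libraries and set no limit on the differences described, but genes with a few counts in a group have no firm fold change.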
